A study of Rattus norvegicus with 32 samples.

Results

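The genes described here act in steroid hormone metabolism and were followed in the rat uterus: Hsd11b1, Hsd11b2, Hsd17b1, Hsd17b2, Hsd17b4, Hsd17b11, Srd5a1, Cyp11a1, Cyp19a1 and Star. They are the rows of the count table whose NCBI gene identifiers carry these symbols, 10 of 17327 genes, and all 10 had enough counts to be tested. RNA was sequenced from the uterus of Sprague-Dawley rats of the NCTR breeding colony at PND365 (postnatal day). The groups were EE2 0.05 and EE2 0.5 (ethinyl estradiol, an orally active synthetic estrogen, in µg per kg body weight per day), a vehicle control of 0.3% carboxymethylcellulose, and BPA 2.5, 25, 250, 2500 and 25000 (bisphenol A, a plastics monomer that binds estrogen receptors, in the same unit). Each of the 8 groups held 4 libraries. BPA was gavaged to the dams from gestation day 6 until labor and to the pups themselves from postnatal day 1 until collection, so the pups were exposed before and after birth. The start days were the same for the EE2 and vehicle groups, whose route is not stated separately. The labels give the tissue as uterus and name no layer, animal, litter or estrous stage. What the p-values weigh is therefore the scatter among libraries, part of which may be technical.

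Steroid hormones are made from cholesterol and then switched on or off inside the tissues that respond to them. StAR moves cholesterol into the mitochondrion, CYP11A1 cuts its side chain to give pregnenolone, and aromatase, encoded by Cyp19a1, turns androgens into estrogens. Within target tissues, the hydroxysteroid dehydrogenases interconvert active and inactive forms: some enzymes of the 17-beta family make or remove estradiol, 11-beta enzyme type 1 regenerates active glucocorticoid, and type 2 inactivates it and so guards the mineralocorticoid receptor.

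Library totals lay between 11777809 and 24661856 counts, the shallowest being a control and the deepest from BPA 250. Levels are given as CPM, counts relative to the TMM-scaled library size, and are compared between groups for 1 gene at a time, not between genes, since no transcript lengths were used. In the library of smallest scaled size 3 counts correspond to 0.267 CPM, which limits what can be said of Cyp11a1, Cyp19a1, Star and Hsd17b2. The following 4 libraries stood apart: BPA 2.5 libraries 1 and 3, BPA 250 library 1 and BPA 25000 library 3 had median correlations with the other libraries between 0.892 and 0.926, against 0.938 or more for the other 28. All 10 smooth muscle markers and all 10 simple epithelium markers had counts in every library.

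Few of the 10 genes passed the test in any one comparison, and the genes that passed in edgeR were Hsd11b1 and Hsd17b11. In edgeR's quasi-likelihood test with Benjamini-Hochberg adjustment over 13312 genes, 1 of 10 passed at BPA 2.5 (Hsd17b11), 1 at BPA 250 and 1 at BPA 25000 (Hsd11b1 both times), against 11.4%, 8.79% and 2.32% of all genes. None passed at EE2 0.05, EE2 0.5, BPA 25 or BPA 2500, where 0.0451%, 0.556%, 1.92% and 0% of all genes did. At an unadjusted p under 0.05 these comparisons held 4, 2, 2 and 2 of the 10 genes in edgeR, against 11.5%, 15.6%, 24.4% and 10.2% of all genes. DESeq2 passed 0, 0, 1 and 1 of the 10 in these comparisons, and limma voom with sample weights 2, 1, 0 and 0. Of all genes DESeq2 passed 0.481%, 3.05%, 7.91% and 0.654% there, and limma voom 10.3%, 9.17%, 19.9% and 0%. The median log2 fold change over the 10 genes lay between -0.24 and 0.28 over the 7 comparisons with control, beside -0.02 to 0.05 for all genes tested. All 7 comparisons share the same 4 control libraries. None of the 10 passed for the mean of both EE2 groups (0.0676% of all genes did), for a linear trend over the BPA doses (4.62%) or between the EE2 doses (0.015%). These held 4, 1 and 0 of the 10 at an unadjusted p under 0.05 in edgeR, against 15%, 22.8% and 9.01% of all genes. DESeq2 passed 0 of the 10 in each, against 2.34%, 8.05% and 0.0901% of all genes. With limma voom it was 3, 1 and 0, against 13.9%, 20.3% and 0.526% of all genes.

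**Figure D1:**
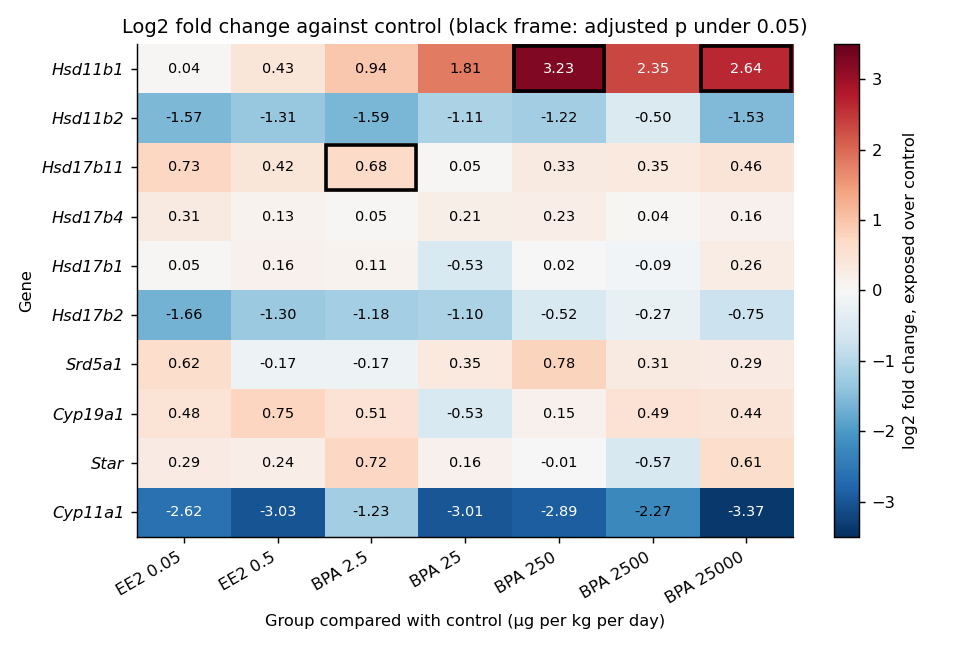
Log2 fold change of each gene (rows) in each exposed group over control (columns, dose in µg per kg per day), with 4 libraries a group and black frames where the adjusted p was under 0.05. Hsd11b1 runs from 0.04 at EE2 0.05 to 3.23 at BPA 250, and Hsd11b2 and Cyp11a1 lie below 0 in all 7 columns.

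Hsd11b1 was higher in BPA-exposed uteri. It encodes the 11-beta dehydrogenase type 1 that regenerates corticosterone from its inactive 11-keto form in rats. At BPA 250 the libraries held 107, 13.8, 52.9 and 111 CPM, against 3.54, 9.92, 5.44 and 11.4 CPM in the controls. All 4 BPA 250 libraries lay above all 4 controls, as did those of 9.5% of the genes tested. The rise was 9.37-fold (log2 fold change 3.23, SE 0.66, adjusted p = 0.00879 in edgeR).

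BPA 25000 libraries held 20.5, 90.2, 12.3 and 66.2 CPM of Hsd11b1, again each above the highest control, a pattern found in 6.16% of genes. The mean was 47.3 ± 37.1 CPM against 7.58 ± 3.71 CPM in controls (SD, n = 4 each), a 6.21-fold rise (log2 fold change 2.64, SE 0.65, adjusted p = 0.0332 in edgeR). This call was lost without any single control library and without BPA 25000 library 2 or 4 (adjusted p between 0.0641 and 0.144), and in a fit of only these groups (adjusted p = 0.0653), whereas the call at BPA 250 held without any single library (adjusted p between 0.00247 and 0.0337).

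The other BPA doses lay on the same side of control without passing the test. At BPA 2.5 Hsd11b1 was at 14, 26.2, 9.86 and 8.29 CPM, which overlaps the controls (log2 fold change 0.94, SE 0.63, adjusted p = 0.35 in edgeR). At BPA 25 it was at 13.1, 45.4, 11.7 and 36.4 CPM, all above the controls like 10.2% of genes (log2 fold change 1.81, SE 0.64, adjusted p = 0.0913). At BPA 2500 it was at 38.3, 72.8, 10.3 and 33.5 CPM, with library 3 inside the control range (log2 fold change 2.35, SE 0.64, adjusted p = 0.246). DESeq2 passed these last 2 doses (adjusted p = 0.0493 and 0.0413). In every BPA group the highest library was at least 3 times the lowest. Of the 20 BPA libraries 17 lay above the highest control, and the share of all genes that did so was not computed.

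Ethinyl estradiol libraries lay near control, 2 of 8 above its highest library. Hsd11b1 held 7.90, 10.6, 6.67 and 6.11 CPM at EE2 0.05 and 7.89, 6.02, 12.1 and 14.8 CPM at EE2 0.5. The log2 fold changes against control were 0.04 (SE 0.63) and 0.43 (SE 0.63), with adjusted p of 0.993 and 0.79 in edgeR. The difference itself was tested as the mean of the 5 BPA groups against the mean of the 2 EE2 groups, and Hsd11b1 was 3.89-fold higher in BPA libraries (log2 fold change 1.96, SE 0.40, adjusted p = 0.0197), the 1 of 10 genes that passed, against 0.841% of all genes. Of the 20 BPA libraries, 12 lay above the highest EE2 library, which held 14.8 CPM, a count given without its share over all genes. The call was lost without EE2 0.05 library 1 or 4 or EE2 0.5 library 1 or 2 (adjusted p between 0.0505 and 0.0653).

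Hsd11b1 also passed the tests that joined all BPA doses. The mean of the 5 BPA groups was 4.57-fold above control (log2 fold change 2.19, SE 0.56, adjusted p = 0.0475), where 1.34% of genes passed, and the F test for any BPA dose gave an adjusted p of 0.00329, where 34.3% of genes passed. The call on the mean lay close to the threshold: it was lost in 22 of 32 fits that left out 1 library, each of the 4 controls included (adjusted p between 0.0513 and 0.187), and with no filter on low counts (adjusted p = 0.0522) or only the groups compared (adjusted p = 0.103). Without the 4 libraries that stood apart it held (log2 fold change 2.26, adjusted p = 0.0303). Over the 5 BPA doses the slope was 0.39 log2 units for each log10 unit of dose (SE 0.14, adjusted p = 0.09 in edgeR), which did not pass. It passed in limma voom with sample weights (0.52, adjusted p = 0.0153).

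Markers of other cell types were read beside Hsd11b1. The summed level of 8 stroma markers was 26500 to 29700 CPM at BPA 250, against 9710 to 29200 CPM in controls, and at BPA 25000 it was 5430 to 25800 CPM. The 10 fat cell markers summed to 326 to 1010 CPM at BPA 250 and 577 to 631 CPM at BPA 25000, against 135 to 699 CPM in controls. Of the fat list, Lpl and Adipoq had medians of 203 and 202 CPM over the 32 libraries and Slc2a4 of 32.4 CPM, while the other 7 had medians of 0.138 (Retn) to 4.24 CPM (Fabp4), Plin1 and Cidec among them. Ciliated cell markers summed to 76.2 to 163 CPM at BPA 25, 50.9 to 94.2 CPM at BPA 250 and 34 to 59.5 CPM at BPA 25000. Controls held 32.5 to 41.9 CPM, so the sums lay wholly above control at BPA 25 and BPA 250. Of the ciliated list, Ccdc39 had a median of 40.5 CPM over the 32 libraries, and the others of 0.382 (Dnai1) to 2.24 CPM (Tekt1). In edgeR 1 of 9 ciliated markers passed at BPA 25 and 0 of 9 at BPA 250, against 1.92% and 8.79% of all genes. At BPA 250, 2 of 8 stroma and 1 of 10 fat cell markers passed as higher, and 1 of 10 simple epithelium markers as lower. At BPA 25, 1 fat cell marker passed as higher and 1 as lower. None of these lists held a call at BPA 25000, where 2.32% of all genes passed. Across the 32 libraries, which span all 8 groups, log2 Hsd11b1 had a Pearson correlation of 0.52 with the fat sum and 0.37 with the stroma sum (Spearman 0.52 and 0.34). With the ciliated sum the correlation was 0.25 (Spearman 0.52). With the log2 total count of the library it was 0.44 (Spearman 0.48), and the part of sequencing depth was not tested. The part of these markers in the Hsd11b1 result was not tested, and in bulk tissue more cells of a type and more RNA per cell cannot be told apart. Without the 4 libraries that stood apart the log2 fold changes were 2.97 at BPA 250 and 2.97 at BPA 25000 (adjusted p = 0.0183 and 0.0119 in edgeR).

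**Figure D2:**
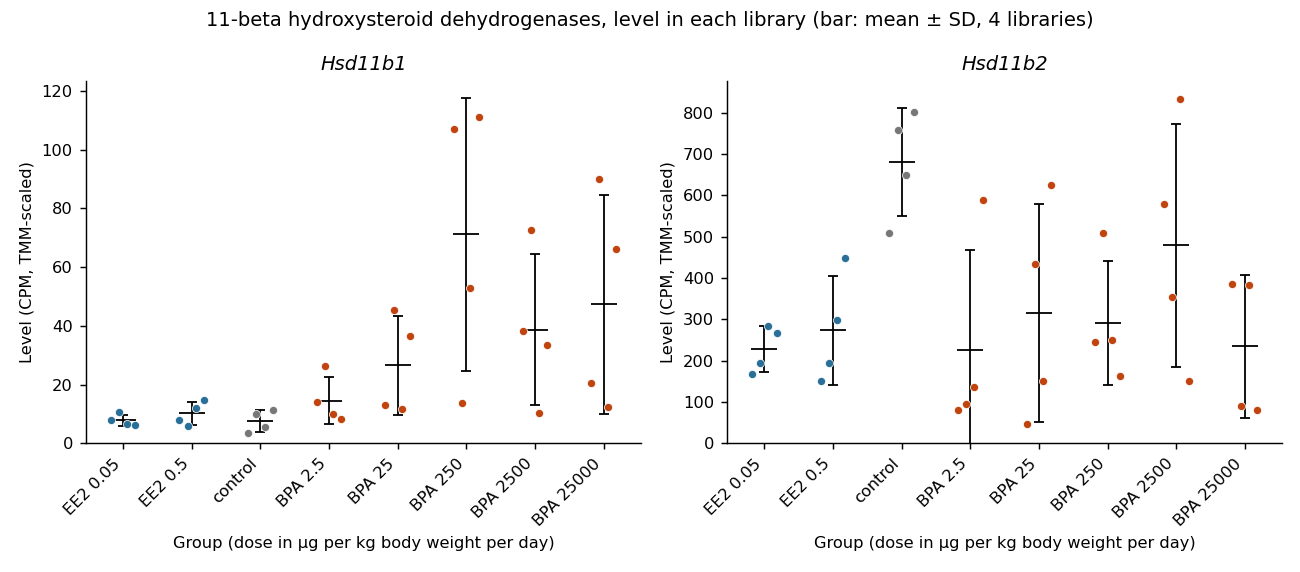
Level of Hsd11b1 (left) and Hsd11b2 (right) in CPM on linear axes, 1 point per library, by group (dose in µg per kg per day), with the mean and SD of 4 libraries as black bars, cut at 0. Hsd11b1 reaches 111 CPM at BPA 250 while EE2 and control libraries stay at or below 14.8 CPM; Hsd11b2 lies between 509 and 801 CPM in controls and lower in both EE2 groups.

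Hsd11b2, whose product inactivates corticosterone, was lower on average in every exposed group, and no difference passed the adjusted test in edgeR. At EE2 0.05 it held 168, 195, 284 and 268 CPM and at EE2 0.5 151, 194, 299 and 449 CPM, against 509, 759, 650 and 801 CPM in controls. Every EE2 library was thus below every control, a pattern found in 5.66% of genes at EE2 0.05 and 6.02% at EE2 0.5. The log2 fold changes were -1.57 (SE 0.66, adjusted p = 0.362 in edgeR) and -1.31 (SE 0.66, adjusted p = 0.333). limma voom with sample weights passed both (adjusted p = 0.0194 and 0.0476).

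BPA groups were wider. Hsd11b2 was at 80.0, 95.5, 137 and 589 CPM at BPA 2.5, where library 4 alone reached the control range (log2 fold change -1.59, SE 0.66, adjusted p = 0.116 in edgeR). Without that library the log2 fold change was -2.71 and passed (adjusted p = 0.00942). At BPA 25 it was at 47.5, 434, 152 and 626 CPM, and at BPA 250 at 244, 509, 250 and 162 CPM. The 4 BPA 250 libraries all lay below the controls, with library 2 and the lowest control both at 509 CPM to 3 digits, and 9.77% of genes showed this. The log2 fold changes were -1.11 at BPA 25 and -1.22 at BPA 250 (adjusted p = 0.296 and 0.217 in edgeR).

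At BPA 2500 Hsd11b2 ranged from 151 to 834 CPM, and its highest library exceeded every control, with a log2 fold change of -0.50 (SE 0.65). At BPA 25000 it was at 385, 90.2, 383 and 80.8 CPM, all below the controls like 7.14% of genes (log2 fold change -1.53, SE 0.66, adjusted p = 0.195 in edgeR). limma voom with sample weights passed BPA 2.5 and BPA 25000, with larger log2 fold changes of -2.47 and -2.79 (adjusted p = 0.00172 and 8.67e-05). Of the 20 BPA libraries 16 lay below the lowest control, as did 8 of 8 EE2 libraries. The share of all genes with such pooled counts was not computed. The mean of the EE2 groups and that of the BPA groups differed from control by -1.44 (SE 0.54, adjusted p = 0.196 in edgeR) and -1.19 (SE 0.46, adjusted p = 0.152), and the BPA mean differed from the EE2 mean by 0.25 (SE 0.39, adjusted p = 0.838). limma voom passed the EE2 mean (adjusted p = 0.0101), the BPA mean (-1.81, adjusted p = 0.00213) and the F test for any BPA dose (adjusted p = 0.000177). The fit of only the groups compared passed Hsd11b2 at EE2 0.05, at BPA 250 and for the EE2 mean (adjusted p = 0.0316, 0.0424 and 0.0119).

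Smooth muscle markers were read beside Hsd11b2. The 10 of them summed to 15100 to 18700 CPM at EE2 0.05 and 13200 to 26900 CPM at EE2 0.5, against 18000 to 34400 CPM in controls. At BPA 250 the sum was 16700 to 21400 CPM and at BPA 25000 16600 to 22000 CPM. Squamous epithelium markers summed to 4.17 to 624 CPM at EE2 0.05 and 49.5 to 394 CPM at EE2 0.5, against 2.59 to 21.6 CPM in controls. EE2 0.05 libraries 1 and 2 lay inside the control range, at 13.2 and 4.17 CPM. At BPA 2.5 the squamous sum was 47.1 to 62.2 CPM, with every library above control. In edgeR 3 of 8 squamous markers passed as higher in each of these exposed groups, against 0.0451%, 0.556% and 11.4% of all genes. Over the 32 libraries, which include all 8 groups, log2 Hsd11b2 had a Pearson correlation of 0.59 with the smooth muscle sum (Spearman 0.59), -0.52 with the ciliated sum (-0.60), -0.51 with the fat sum (-0.48) and -0.07 with the squamous sum (-0.09), given as a description. The part of these cell types in the Hsd11b2 values was not tested.

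Set side by side, the ratio of the 11-beta genes was above every control in most exposed libraries. Hsd11b1 amounted to 2.28 to 5.44 CPM per 100 CPM of Hsd11b2 at EE2 0.05 and 3.10 to 5.22 at EE2 0.5, against 0.694 to 1.43 in controls. The median of this ratio was 1.07 in controls and, in order of rising BPA dose, 12.3, 9.08, 32.6, 13.6 and 43.6, and the highest single value was 100 at BPA 25000. All 8 EE2 libraries and 18 of 20 BPA libraries lay above the highest control. The other two, 1 at BPA 2.5 and 1 at BPA 2500, fell inside the control range. The ratio was formed after both genes had been seen beside these same controls, so it adds no separate support. In EE2 libraries it mainly restates Hsd11b2, as Hsd11b1 lay near control there. It is not adjusted for transcript length and was not tested, and no other gene pairs were set beside it. Across the 32 libraries the levels of both genes were only weakly related (Pearson -0.23, Spearman -0.24).

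**Figure D3:**
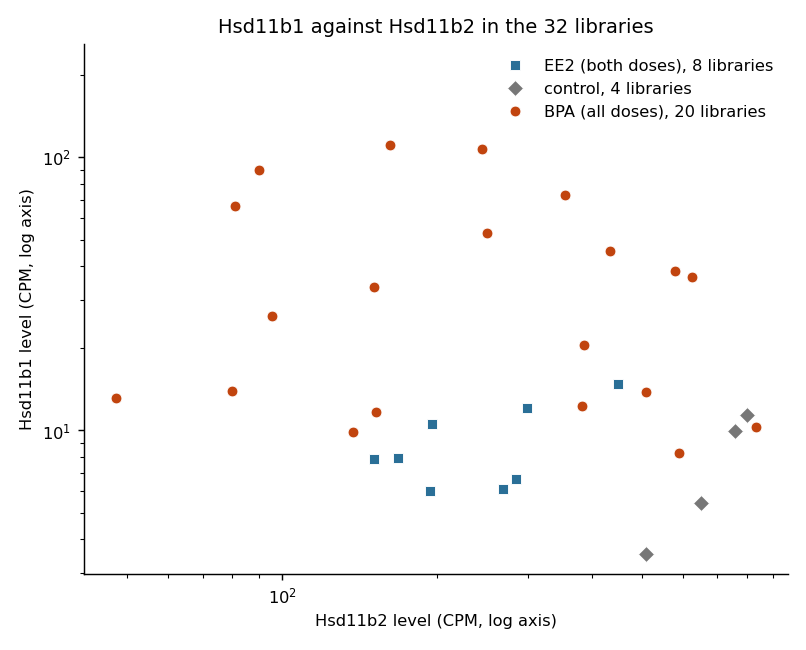
Hsd11b1 against Hsd11b2 in CPM, both on log axes, 1 point per library: 8 EE2 libraries (squares), 4 controls (diamonds) and 20 BPA libraries (circles). Controls sit at the lower right; EE2 libraries are shifted left, between 151 and 449 CPM of Hsd11b2, and BPA libraries spread left and up to 111 CPM of Hsd11b1.

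Hsd17b11, a lipid droplet enzyme of the 17-beta family that oxidises androgen metabolites, was higher in BPA 2.5 uteri. It held 129, 190, 129 and 121 CPM at BPA 2.5, against 93.1, 66.2, 104 and 91.7 CPM in controls, with no overlap (6.45% of genes lay wholly above control). The rise was 1.60-fold (log2 fold change 0.68, SE 0.21, adjusted p = 0.0313 in edgeR). It did not pass without control library 2 or 4 or BPA 2.5 library 1 or 2 (adjusted p between 0.0537 and 0.121), in a fit of only these groups (adjusted p = 0.119), nor without the 4 libraries that stood apart (log2 fold change 0.81, adjusted p = 0.0596). Ciliated cell markers summed to 34.9 to 884 CPM at BPA 2.5, against 32.5 to 41.9 CPM in controls. Their sum was 884 and 589 CPM in libraries 1 and 3, which stood apart, and 67.5 and 34.9 CPM in libraries 2 and 4. In edgeR 9 of 9 ciliated markers passed as higher at BPA 2.5, against 11.4% of all genes. The part of ciliated cells in the Hsd17b11 values was not tested.

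At EE2 0.05 Hsd17b11 was as high, at 158, 168, 150 and 113 CPM, each above every control like 5.71% of genes, with a log2 fold change of 0.73 (SE 0.21, adjusted p = 0.222 in edgeR). limma voom with sample weights passed it (adjusted p = 0.00449). At EE2 0.5 it was at 96.3 to 146 CPM. At BPA 25 it was level with control, at 91.9 ± 17.8 CPM against 88.9 ± 16.1 CPM (SD, n = 4 each). BPA 250, 2500 and 25000 averaged 112 ± 22, 113 ± 31.1 and 122 ± 27.5 CPM (SD, n = 4 each), and none of these passed in edgeR. limma voom passed Hsd17b11 at BPA 25000 (log2 fold change 0.61, adjusted p = 0.00181), for the EE2 mean (0.57, adjusted p = 0.00571) and for the BPA mean (0.35, adjusted p = 0.032). The fit of only the groups compared also passed the EE2 mean (adjusted p = 0.0488), and DESeq2 the F test for any BPA dose (adjusted p = 0.039).

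Of the promoters of the 10 genes, RefSeq sequences on build GRCr8 were at hand for 4, those of Hsd17b11, Hsd17b4, Srd5a1 and Cyp11a1. The 250 bases before the gene start are shown for Hsd17b11 and Cyp11a1, the genes of these 4 with the smallest p in the F test over any BPA dose. The counts themselves come from reads aligned to rn5. Searched on both strands were the nuclear receptor motif AGGTCA, the full palindromic estrogen response element, the GC box GGGCGG, the box CCAAT and the letters TATAA, whose matches are in capitals.
Hsd17b11 (chr14:6016440-6016689, plus strand): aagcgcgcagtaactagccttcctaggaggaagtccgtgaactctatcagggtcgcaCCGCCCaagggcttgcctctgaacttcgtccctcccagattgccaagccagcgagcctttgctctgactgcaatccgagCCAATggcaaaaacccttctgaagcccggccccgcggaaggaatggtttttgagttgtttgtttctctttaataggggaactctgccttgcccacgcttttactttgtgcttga
Cyp11a1 (chr8:67318415-67318664, plus strand): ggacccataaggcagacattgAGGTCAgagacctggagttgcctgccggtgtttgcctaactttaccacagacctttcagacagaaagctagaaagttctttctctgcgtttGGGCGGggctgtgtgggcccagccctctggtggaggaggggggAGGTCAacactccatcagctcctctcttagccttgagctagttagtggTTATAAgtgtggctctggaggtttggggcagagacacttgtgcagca
The Cyp11a1 window holds 2 AGGTCA motifs, 229 and 95 bases before the start, 1 GC box and overlapping TATAA matches on both strands from 47 bases before the start. The Hsd17b11 window holds 1 GC box on the minus strand and 1 CCAAT box. Of 33469 promoter windows of this length, 14.1% hold AGGTCA, 30.5% the GC box, 34% CCAAT, 24% TATAA and 0.0239% the full element, which neither of these windows holds. A match is a run of letters and not a shown binding site.

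Cyp11a1, the side-chain cleavage enzyme that starts steroid synthesis, had few counts in every group, and its mean was 0.214 to 0.972 CPM in the exposed groups, against 2.29 ± 1.91 CPM in controls (SD, n = 4). Counts at EE2 0.05 were 13, 1, 7 and 1 and at EE2 0.5 6, 6, 5 and 1, against 1, 58, 47 and 20 in controls. In BPA libraries they were 21, 0, 25 and 14 at BPA 2.5, 4, 2, 2 and 7 at BPA 25, 16, 5, 0 and 1 at BPA 250, 2, 14, 17 and 1 at BPA 2500, and 7, 7, 0 and 3 at BPA 25000. Control library 1 held 1 of the 126 control counts, so the groups overlapped at every dose. The log2 fold change was -3.03 at EE2 0.5 (SE 1.13, adjusted p = 0.181 in edgeR) and -3.37 at BPA 25000 (SE 1.14, adjusted p = 0.102). At BPA 25000 DESeq2 (adjusted p = 0.0479) and limma voom (adjusted p = 0.0328) passed it, and the fit of only the groups compared passed the EE2 mean (-2.82, adjusted p = 0.045).

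For the mean of all BPA groups Cyp11a1 had a log2 fold change of -2.55 (SE 0.70), with an adjusted p of 0.0543 in edgeR. It passed in DESeq2 and in limma voom (adjusted p = 0.0466 and 0.0172), and without the 4 libraries that stood apart (adjusted p = 0.0235). Without those libraries BPA 250 alone also passed (log2 fold change -4.28, adjusted p = 0.0442). At 0 to 58 counts a library a fitted fold depends on edgeR's default prior count and is no bound. The 8 ovary markers summed to 6.04, 39.0, 6.96 and 21.2 CPM in the 4 controls and reached 126 CPM at BPA 2.5, with Lhcgr (median 18.8, at most 121 CPM), Inha (median 2.34 CPM) and Bmp15 (median 1.65 CPM) counted in all 32 libraries. The other 5 had counts in 2 (Fshr) to 23 (Amh) of the libraries. The part of ovarian tissue in the Cyp11a1 values was not tested.

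Star, the cholesterol carrier of steroidogenic mitochondria, had between 0 and 32 counts a library, with 0 counts in 2 libraries, both at BPA 250. It averaged 0.926 ± 0.126 CPM at EE2 0.05 and 0.899 ± 0.703 CPM at EE2 0.5, against 0.755 ± 0.188 CPM in controls (SD, n = 4 each). The BPA means lay between 0.503 and 1.25 CPM. Star and Cyp11a1 therefore gave different orders of groups: the highest mean of Star was at BPA 2.5 and that of Cyp11a1 in controls. No difference of Star from control passed in edgeR.

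Cyp19a1, aromatase, had 4 to 50 counts a library. Its group means ran from 0.806 ± 0.490 CPM at BPA 25 to 1.99 ± 0.847 CPM at EE2 0.5, with 1.18 ± 0.984 CPM in controls (SD, n = 4 each), and every pair of neighbours in that order overlapped. Srd5a1, the 5-alpha reductase that turns testosterone into dihydrotestosterone, averaged highest at BPA 250, with 8.18, 29.9, 7.13 and 27.7 CPM, against 16.8, 3.92, 11.4 and 10.5 CPM in controls. BPA 250 libraries 2 and 4 lay above the control range and libraries 1 and 3 inside it, and no dose passed in edgeR (F test for any BPA dose, adjusted p = 0.531 in edgeR).

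**Figure D4:**
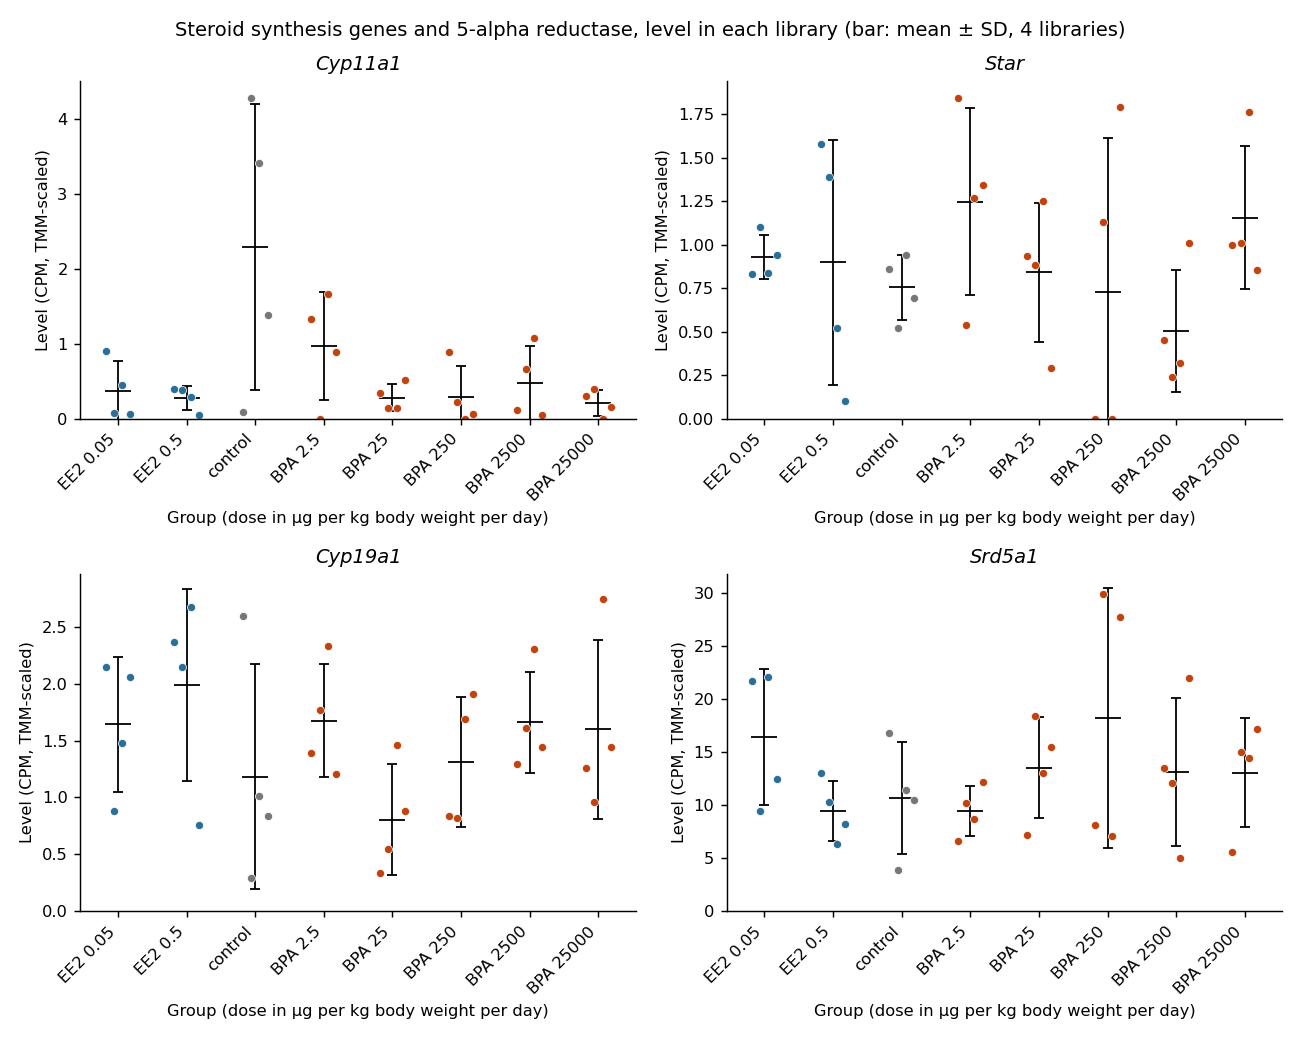
Level of Cyp11a1, Star, Cyp19a1 and Srd5a1 in CPM on linear axes from 0, 1 point per library, by group (dose in µg per kg per day), with the mean and SD of 4 libraries as black bars, cut at 0. Control libraries 2 to 4 carry Cyp11a1 at 1.39 to 4.29 CPM and library 1 is at 0.0862 CPM; Srd5a1 splits into high and low libraries at BPA 250.

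Hsd17b4, Hsd17b1 and Hsd17b2 did not pass in any comparison with control in edgeR. Hsd17b4, a peroxisomal enzyme that oxidises estradiol and shortens fatty acids, stayed between 147 and 359 CPM in all libraries. Its group means lay between 241 and 290 CPM in exposed groups, against 234 ± 27.7 CPM in controls (SD, n = 4). limma voom passed it at BPA 25000 (log2 fold change 0.41, adjusted p = 0.0143) and in the F test for any BPA dose (adjusted p = 0.0113), where it passed 30.9% and 66.6% of all genes. Hsd17b1, which makes estradiol from estrone, averaged 3.01 ± 0.464 CPM at BPA 25 against 4.35 ± 0.793 CPM in controls (SD, n = 4 each). It was highest in BPA 25000 library 3, at 9.16 CPM.

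Hsd17b2, which converts estradiol back to estrone, had lower means than control in every exposed group. It held 1.45, 1.90, 1.54 and 0.412 CPM at EE2 0.05 and 1.12, 1.14, 3.54 and 1.01 CPM at EE2 0.5, against 2.16, 1.26, 7.32 and 6.06 CPM in controls. Control libraries 3 and 4 were several times above libraries 1 and 2, and the groups overlapped. The log2 fold change was -1.66 at EE2 0.05 (SE 0.81, adjusted p = 0.434 in edgeR) and between -1.18 and -0.27 at the BPA doses. The BPA libraries ran from 0.17 to 7.97 CPM. limma voom passed Hsd17b2 for the EE2 mean (log2 fold change -1.61, adjusted p = 0.0374), for the BPA mean (-1.28, adjusted p = 0.0318) and at BPA 25000 (-1.57, adjusted p = 0.0319).

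**Figure D5:**
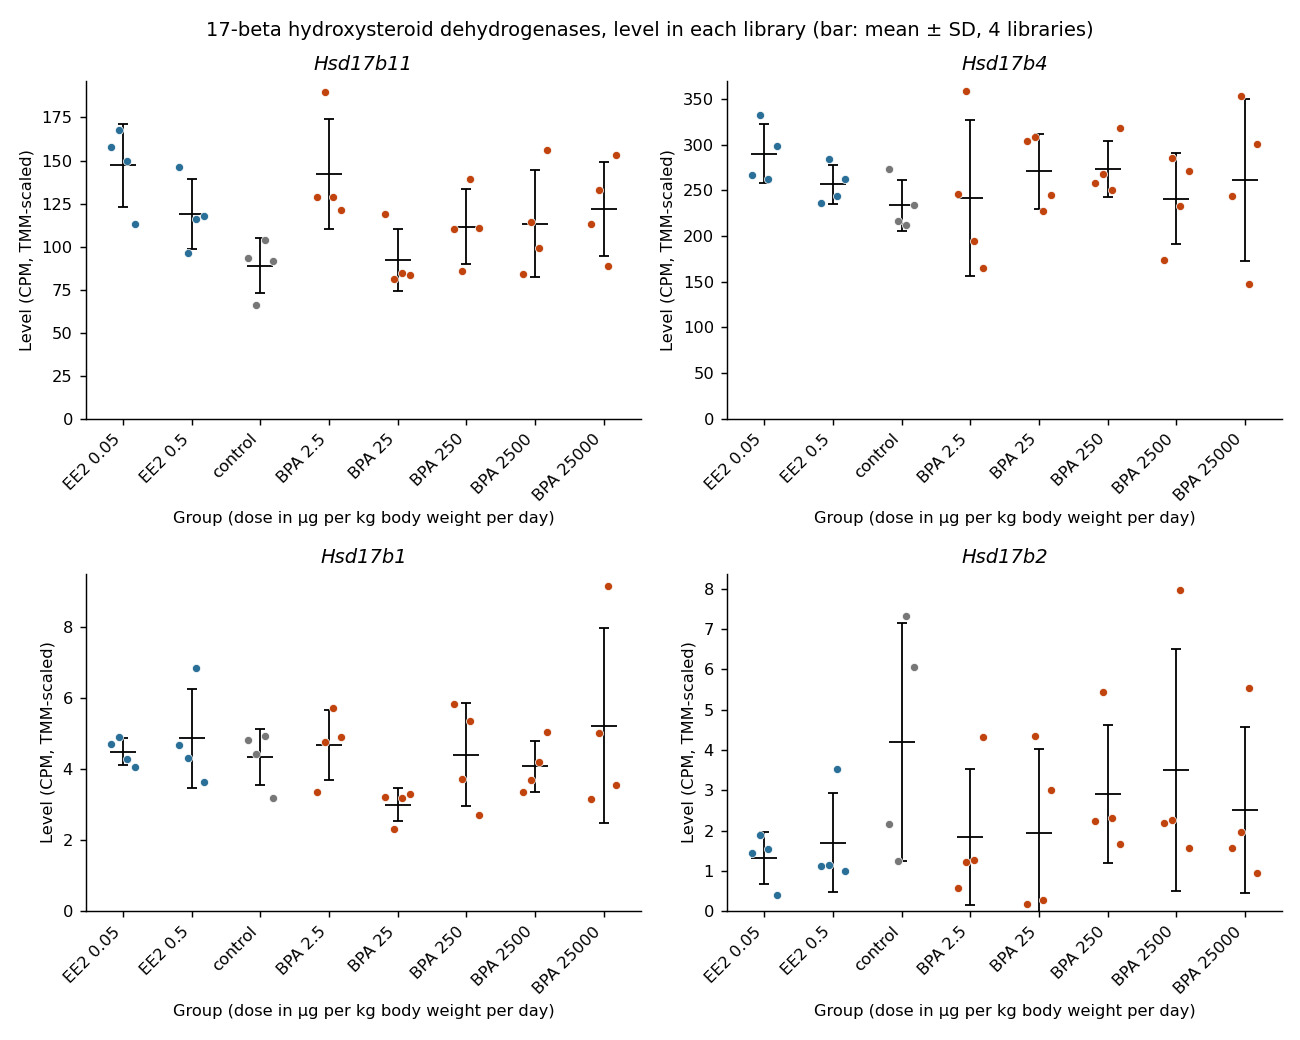
Level of Hsd17b11, Hsd17b4, Hsd17b1 and Hsd17b2 in CPM on linear axes from 0, 1 point per library, by group (dose in µg per kg per day), with the mean and SD of 4 libraries as black bars, cut at 0. Hsd17b11 lies above the 104 CPM of the highest control in every BPA 2.5 and EE2 0.05 library, while Hsd17b4 overlaps control in all BPA groups.

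A further 60 genes of steroid metabolism and response were listed, and 44 had enough counts to be tested. At BPA 2.5, 7 of 44 passed (15.9%, against 11.4% of all genes), 3 higher and 4 lower. Sts, the sulfatase that frees estrone and other steroids from their sulfates, rose 2.28-fold (27.9, 21.9, 28.8 and 31.4 CPM, against 14.7, 11, 11.3 and 11.4 CPM in controls; log2 fold change 1.19, SE 0.24, adjusted p = 0.00355 in edgeR). Its call at BPA 2.5 held without any single library and without the 4 that stood apart.

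Nr3c2, the mineralocorticoid receptor, also rose at BPA 2.5 (log2 fold change 1.13, SE 0.34, adjusted p = 0.0309 in edgeR), and Akr1c19 by 1.67 (SE 0.48). Hsd17b7, which acts in cholesterol synthesis, fell by 1.35 (SE 0.37), Akr1c14, a 3-alpha dehydrogenase, by 0.99 (SE 0.31) and Fdx1, the ferredoxin that feeds electrons to CYP11A1, by 0.61 (SE 0.18). Akr1c genes are close copies of each other and reads may have been split between them. Without the 4 libraries that stood apart, Sts and Fdx1 kept their calls, and those of Nr3c2, Akr1c19, Hsd17b7 and Akr1c14 were lost (adjusted p = 0.282, 0.88, 0.19 and 0.309). Akr1c19 then had a log2 fold change of 0.20. Over the 7 alternatives that drop no single library, Sts passed in 7 (adjusted p up to 0.05, rounded) and Fdx1 in 6 (up to 0.123). Each of these calls but that of Sts was also lost without at least 1 single library, controls among them (adjusted p up to 0.156).

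BPA 250 held 5 of 44 (11.4%, against 8.79% of all genes). Por, the reductase that passes electrons to microsomal cytochromes P450, fell to 19.3, 28.6, 22.6 and 24.7 CPM, against 38.5, 55.4, 43.3 and 61.6 CPM in controls (log2 fold change -1.06, SE 0.20, adjusted p = 0.00616 in edgeR). Cyp21a1, the steroid 21-hydroxylase, rose (log2 fold change 1.28, SE 0.33), as did Fdx1 (0.62, SE 0.18) and Nr3c1, the glucocorticoid receptor (0.76, SE 0.24). Fdx1 was thus lower at BPA 2.5 and higher at BPA 250, both relative to the same controls. Por kept its call without any single library, and those of Cyp21a1, Fdx1 and Nr3c1 were each lost without at least 1 library, controls among them (adjusted p up to 0.126).

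The other comparisons with control held 0 to 2 of these 44 genes. Sts rose at BPA 25000 (log2 fold change 1.01, SE 0.23, adjusted p = 0.0254 in edgeR) and Hsd17b7 fell there (-1.47, SE 0.37, adjusted p = 0.0362), 2 of 44 in all, against 2.32% of all genes. Both calls were lost in 5 of 32 fits that left out 1 library, namely control library 2, 3 or 4 or BPA 25000 library 2 or 4 (adjusted p up to 0.113 and 0.136). Hsd17b7 alone passed at EE2 0.5, where 0.556% of all genes did (log2 fold change -1.59, SE 0.38, adjusted p = 0.0466), a call lost in 18 of 32 fits that left out 1 library, and no gene of the 44 passed at EE2 0.05, BPA 25 or BPA 2500 in edgeR. These held 7, 11 and 5 of the 44 at an unadjusted p under 0.05, against 11.5%, 24.4% and 10.2% of all genes. DESeq2 passed 1, 4 and 0 of the 44 there, against 0.481%, 7.91% and 0.654% of all genes. With limma voom it was 6, 8 and 0, against 10.3%, 19.9% and 0% of all genes. The F test for any BPA dose passed 14 of 44 (31.8%, against 34.3% of all genes), among them Por, Fdx1, Sts, Pgrmc1 and Stard3.

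The genes whose log2 levels were most like those of Hsd11b1 over the 32 libraries were Abcb1b, a drug efflux pump (Pearson 0.93, Spearman 0.78), Atp1b1, a sodium pump subunit (0.89 and 0.76), and Erbb4, a neuregulin receptor (0.89 and 0.81). For Hsd17b11 they were Zfyve1 (0.86 and 0.83), Coq8a (0.80 and 0.84) and Eif2ak1 (0.80 and 0.83). For Cyp11a1 they included Enc1 (0.73 and 0.76) and Slc17a9 (0.66 and 0.61). These points share the libraries and the 8 groups, so the values describe likeness of pattern and carry no test.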

How the data were processed

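The authors deposited a table of raw read counts per gene for 32 uterus libraries in 8 groups of 4. The submitters' processing notes name bcl2fastq, TopHat, edgeR and build rn5; their versions, the annotation and the strand setting were not given in those notes or other labels. NCBI gene identifiers were matched to symbols through the RefSeq table of GRCr8 (17167 of 17327 genes). Counts were filtered with filterByExpr (minimum count 10, minimum total 15), leaving 13312 genes, scaled by TMM and fitted with all 8 groups in 1 model by edgeR's quasi-likelihood test (edgeR 4.0.16, limma 3.58.1, R 4.3.3), with Benjamini-Hochberg adjustment over all genes tested and a threshold of 0.05. The model served 13 comparisons and was checked on simulated data.

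CPM used TMM-scaled library sizes, and log2 CPM for correlations a prior count of 2. Each SE beside a log2 fold change is its absolute value divided by the square root of the test's F. It is thus worked back from the test and is not an SE that edgeR reports. Of the further steroid genes, those past the threshold were named, at most the 6 of smallest p in a comparison. Genes of like pattern were the 3 of highest Pearson correlation, for the 3 members of smallest p over any BPA dose. Some genes these rules name are not reported here. Alternatives were other size factors, no filter, at least 1 CPM in 16 libraries, DESeq2 1.42.0, limma voom with sample weights, fits of only the groups compared, leaving out each library, and leaving out the 4 that stood apart. The members and lists were chosen with earlier results of these data known. Intervals and floors of 3 counts cover counting error only. No batch is labelled.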

Additional observations from a re-analysis of the deposited data

Results flagged for a closer look

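Of 80 groups of 4 libraries (10 genes in 8 groups), 6 were flagged by Dixon's outlier test on CPM. In each of these, the gap of 1 library to its nearest neighbour took up at least 0.88 of the group's range. Groups with smaller gaps were not flagged. By chance the test flags about 1 in 20 groups if the values are normally distributed, which was not tested for these CPM. Hsd11b2 at BPA 2.5 reached 589 CPM in library 4, with the other 3 at 80, 95.5 and 137 CPM. Hsd17b11 reached 190 CPM in BPA 2.5 library 2, and 119 CPM in BPA 25 library 1. Hsd17b2 reached 3.54 CPM in EE2 0.5 library 3 and 7.97 CPM in BPA 2500 library 3. Hsd17b1 was low, at 2.31 CPM, in BPA 25 library 2. The effects of BPA and EE2 on Hsd11b1 differed when tested directly, by 1.96 on the log2 scale (adjusted p = 0.0197 in edgeR's quasi-likelihood test).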

How the results depend on the processing

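No paired analysis was possible because the labels number the libraries through the series and the groups share no replicate numbers. Of the 10 genes, limma voom with sample weights passed 2 at EE2 0.05 (10.3% of all genes there), 1 at EE2 0.5 (9.17%), 2 at BPA 2.5 (30.8%), 6 at BPA 25000 (30.9%), 3 for the EE2 mean (13.9%), 5 for the BPA mean (19%), 5 for any BPA dose (66.6%) and 1 for the trend (20.3%). DESeq2 passed 1 at BPA 25 (7.91%), 1 at BPA 2500 (0.654%), 2 at BPA 25000 (5.68%), 2 for the BPA mean (5.83%) and 3 for any BPA dose (42.9%). Fits of only the groups compared passed 1 at EE2 0.05 (1.05%), 0 at BPA 2.5 (0.457%), 2 at BPA 250 (9.77%), 0 at BPA 25000 (2.26%), 3 for the EE2 mean (4.82%) and 0 for the BPA mean (0.0908%). Without the 4 libraries that stood apart the counts were 0 at BPA 2.5 (3.92%), 2 at BPA 250 (6.58%), 2 for the BPA mean (4.68%) and 2 for any BPA dose (26.4%). With no filter 0 passed for the BPA mean (0.745%). Leaving out 1 library gave 0 to 2 at BPA 2.5, 0 to 1 at BPA 25000, 0 to 3 for the BPA mean, 1 to 2 for any BPA dose and 0 to 1 for BPA against EE2. Over all genes, in the same order, these fits passed 594 to 1984, 2 to 502, 1 to 537, 3729 to 5233 and 24 to 224.

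The sign turned for 4 small differences. The log2 fold change of Hsd11b1 at EE2 0.05 was -0.095 in limma voom and ran from -0.19 to 0.31 without single libraries. The BPA slope of Hsd11b2 was -0.054 in limma voom, -0.12 without the 4 libraries and ran from -4e-04 to 0.29 without single ones. Its difference between EE2 doses ran from -0.091 to 0.46 without single libraries, and that between BPA and EE2 was -0.11 in limma voom. The causes were not tested.

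Counts over all genes moved more. At BPA 2.5 1524 genes passed, against 57 in the fit of the groups alone, 526 without the 4 libraries and 4103 in limma voom. At BPA 250 1170 passed, 179 without BPA 250 library 1 and 2991 in limma voom. At BPA 25000 309 passed, 2 without control library 2, 756 in DESeq2 and 4116 in limma voom. At BPA 25 256 passed, 0 without control library 2, 1053 in DESeq2 and 2650 in limma voom. For EE2 0.05 6 passed and for EE2 0.5 74, against 1375 and 1221 in limma voom and 0 each without control library 2. For the BPA mean 178 passed, 1 without control library 3 and 2532 in limma voom. For BPA against EE2 112 passed, 24 without EE2 0.5 library 2 and 510 in limma voom. For the EE2 mean 9 passed, for the trend 615 and for any BPA dose 4572, against 1856, 2703 and 8869 in limma voom.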
